A study of Mus musculus with 6 samples.

Results

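The genes described here are 36 genes of the unfolded protein response and of the protein-folding machinery of the endoplasmic reticulum (ER), measured in cultured mouse astrocytes after transfection with miR-29. They were named by symbol for their function, and each probe was assigned to a gene through its RefSeq accession. Of the 36 genes, 35 had a probe well above background and were tested among 19741 genes and transcripts, and no probe matched Pdia3. The 3 miR-29 samples were primary cortical astrocytes of C57BL/6 mouse embryos (embryonic day 18) that had received the miR-29 family precursors 29a, 29b and 29c, mixed 1 to 2 to 1, at 80 nM. The 3 control samples were astrocytes of the same purchased culture type given a negative control precursor at 80 nM. Both groups were transfected with a lipid reagent 3 weeks after plating, were harvested 48 h later, and were each hybridised to 1 one-colour Agilent Whole Mouse Genome array per sample. The labels call the samples of a group extraction replicates and name no separate cultures, so the p-values cover only the spread between these extractions, which may be technical. The human precursors were given as a mixture, so no value can be given to a single miR-29 form, and the labels put the transfection efficiency above 90%.

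Proteins that enter the ER are folded by chaperones and disulfide isomerases, and those that fail are sent back to the cytosol for destruction, a route called ER-associated degradation (ERAD). When unfolded proteins build up, 3 membrane sensors answer. ATF6 is cut in the Golgi and frees a transcription factor that turns on chaperone genes, IRE1 (gene Ern1) splices the messenger of the transcription factor XBP1, and PERK (gene Eif2ak3) slows translation while favouring the transcription factor ATF4. MicroRNAs lower messengers that pair with their seed, the bases 2 to 8 from the 5′ end.

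The mature mouse miR-29 sequences are shown because they are the agent that differs between the groups. They are RefSeq entries of build GRCm38.p6, 5′ to 3′, with the seed in capitals, and the 3 forms share 1 seed and differ outside it.
mmu-miR-29a-3p: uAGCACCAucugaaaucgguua
mmu-miR-29b-3p: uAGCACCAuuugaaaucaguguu
mmu-miR-29c-3p: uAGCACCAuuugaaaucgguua

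Promoter elements are known for many of these genes, and RefSeq promoters (250 bases before to 50 after the transcription start, build GRCm38.p6) were given for 32 of the 36, all but Atf6, Hyou1, Manf and Derl1. The ER stress response element (ERSE), searched as CCAAT, 9 letters of any kind and CCACG, is bound by ATF6 or XBP1 together with the CCAAT-binding factor NF-Y. On both strands it was found in the promoters of 9 of the 32 genes and in 39 of all 32851 promoters (0.119%). The shares over all promoters count promoters and not genes. Because such elements were already known for many of these genes, a higher share among them is no test. The related ERSE-II, searched as ATTGG, 1 letter of any kind and CCACG, was found in Herpud1 and Dnajb11 and in 0.0365% of all promoters. A core of the element read by ATF4, TTGCATCA, was found in Chac1 and Herpud1 and in 0.895% of all promoters. An XBP1 element, TGACGTGG, was in 0 of the 32 and in 0.676% of all promoters. A match is a run of letters in this window and not a measured binding site, and the motifs were chosen after the values were known. No overlap between matches of different motifs occurred in these promoters. The ERSE matches are set below one another because the genes that carry them are compared further on. Each is read from its CCAAT end, with the fixed letters in capitals, and Hsp90b1 has a pair of matches.
Hspa5, chr2:34772025-34772043: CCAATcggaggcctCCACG
Calr, chr8:84847075-84847093: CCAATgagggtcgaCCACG
Derl3, chr10:75893242-75893260: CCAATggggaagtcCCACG
Hsp90b1, chr10:86705638-86705656: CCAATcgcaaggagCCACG
Hsp90b1, chr10:86705533-86705551: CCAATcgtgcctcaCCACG
Canx, chr11:50325800-50325818: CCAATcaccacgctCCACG
Pdia6, chr12:17266491-17266509: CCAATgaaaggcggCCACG
Dnajc3, chr14:118937827-118937845: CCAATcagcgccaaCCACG
Creld2, chr15:88819520-88819538: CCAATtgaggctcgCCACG
Syvn1, chr19:6046532-6046550: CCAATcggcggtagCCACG

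Whole promoter windows are given for 4 genes that differed in response. Hspa5 and Herpud1 were lower after miR-29, Canx carries the ERSE but did not pass the test, and Chac1 was higher. Capitals mark the fixed letters of the motifs above, and each window runs in the direction of its gene.
Hspa5, chr2:34771840-34772139, plus strand: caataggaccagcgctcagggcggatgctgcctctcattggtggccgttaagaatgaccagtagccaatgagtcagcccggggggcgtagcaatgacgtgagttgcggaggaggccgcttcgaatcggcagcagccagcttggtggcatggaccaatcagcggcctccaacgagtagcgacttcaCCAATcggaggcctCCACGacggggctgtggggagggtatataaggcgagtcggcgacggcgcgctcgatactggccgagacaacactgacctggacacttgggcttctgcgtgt
Herpud1, chr8:94386179-94386478, plus strand: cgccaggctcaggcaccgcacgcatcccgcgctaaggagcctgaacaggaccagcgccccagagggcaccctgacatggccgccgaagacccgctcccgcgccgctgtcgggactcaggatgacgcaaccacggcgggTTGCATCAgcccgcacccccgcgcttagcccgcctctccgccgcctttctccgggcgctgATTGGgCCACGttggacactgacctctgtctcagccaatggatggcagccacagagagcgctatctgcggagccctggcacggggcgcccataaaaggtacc
Canx, chr11:50325624-50325923, minus strand: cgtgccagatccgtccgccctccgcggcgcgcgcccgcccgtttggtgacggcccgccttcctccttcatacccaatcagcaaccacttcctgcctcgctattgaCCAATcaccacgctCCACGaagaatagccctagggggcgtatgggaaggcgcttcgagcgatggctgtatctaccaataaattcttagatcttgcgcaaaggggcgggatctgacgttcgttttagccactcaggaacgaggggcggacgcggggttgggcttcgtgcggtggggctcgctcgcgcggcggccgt
Chac1, chr2:119350992-119351291, plus strand: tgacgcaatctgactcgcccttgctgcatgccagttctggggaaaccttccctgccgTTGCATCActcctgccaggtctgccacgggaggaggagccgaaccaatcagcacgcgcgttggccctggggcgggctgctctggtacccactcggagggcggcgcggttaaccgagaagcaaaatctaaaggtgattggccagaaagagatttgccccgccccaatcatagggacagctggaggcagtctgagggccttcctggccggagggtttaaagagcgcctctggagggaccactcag

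**Figure D1:**
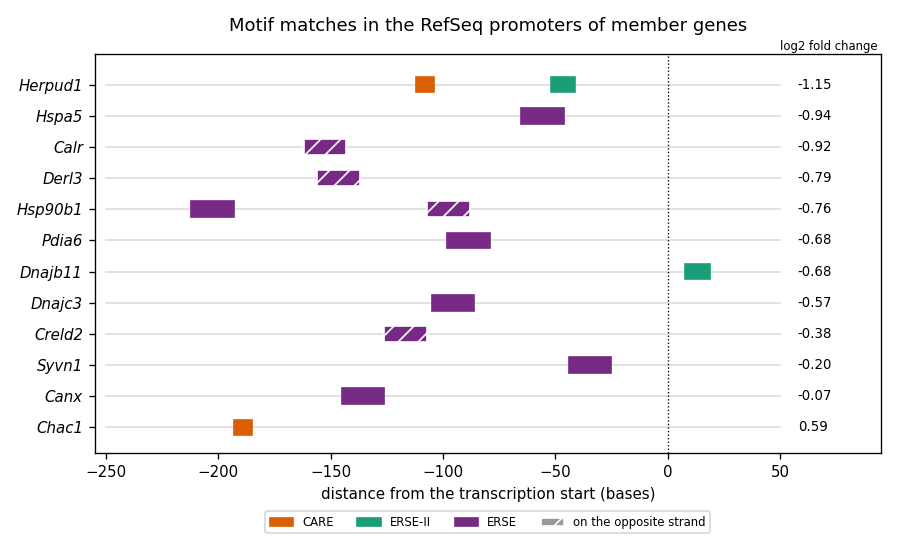
Motif matches in the RefSeq promoters of 12 member genes, one gene a row, ordered by log2 fold change (miR-29 minus control, printed at the right). The horizontal axis is the distance from the transcription start in bases, colours mark the motif and hatching marks the opposite strand. The ERSE matches lie upstream of the start, between 212 and 26 bases from it, and Dnajb11 has its ERSE-II after the start.

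The values are log2 processed signals minus the 75th percentile of the array, so 0 is the 75th percentile, and levels of different genes cannot be compared because each probe has its own brightness. Between 62.5% and 67.3% of probes on an array rose well above background, and 0 spots were saturated. Arrays of 1 group correlated at 0.9942 or more over all genes tested, and those of unlike groups at 0.9753 to 0.9849. The 3 miR-29 arrays shared slide 1 with control replicate 1, while the other two controls were on slide 2. All 10 astrocyte markers were above background. Their summed linear signal was 89.1 to 98.1 times the 75th percentile in miR-29 arrays and 60.1 to 63.8 in control arrays. Of these markers 6 were higher and 1 lower, where 35.3% and 22.8% of all genes were. The brightest probes weigh most in such a sum, so the calls are given beside it. Of the microglial markers 3 of 7 were above background (Aif1, Itgam, Cx3cr1 and Trem2 were not), with sums of 3.13 to 3.38 in miR-29 arrays and 4.18 to 4.72 in control arrays. The endothelial markers were above background in 2 of 6 cases (Pecam1, Cldn5, Tie1 and Emcn were not), with sums of 0.124 to 0.130 in miR-29 arrays and 0.0948 to 0.121 in control arrays. Neuronal markers (6 of 8, without Snap25 and Gad1) summed to 5.84 to 6.07 in miR-29 arrays and 6.84 to 7.37 in control arrays. Their calls were mixed, with 2 lower, 2 higher and 2 not past, and their median log2 fold change was 0.055. Oligodendrocyte lineage markers (7 of 8, without Mog) summed to 5.41 in each miR-29 array and to 4.19 to 4.27 in control arrays. Fibroblast and mural markers (7 of 8, without Rgs5) summed to 308.4 to 331.0 in miR-29 arrays and to 222.6 to 247.2 in control arrays. The lineage list had 1 lower and 5 higher, and the fibroblast and mural list 2 lower and 3 higher (-0.96 to 1.61). The microglial list had 2 lower and 1 higher, and the endothelial list 0 lower and 1 higher. The part of these cell type differences in the results was not tested, and in such bulk RNA fewer cells of a type and less RNA per cell cannot be told apart.

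Of the 35 tested genes, 23 fell with miR-29, 3 rose and 9 did not pass the test (limma, two-sided, Benjamini-Hochberg adjusted p under 0.05 over all genes, n = 3 per group). Among all genes and transcripts 22.8% were lower and 35.3% higher, 58.1% in all, whereas 65.7% of the members were lower and 8.57% higher. The median log2 fold change (miR-29 minus control) of the members was -0.38, against 0.068 over all genes. With scaling to spike-in spots every value shifted by -0.25, so that 38.5% of all genes were lower and 15.2% higher. Of the 35 members 28 were then lower and 1 (Chac1) higher. Within slide 1, 18 of the 35 members were lower and 2 higher, against 16.3% and 26.6% of all genes. With normexp background correction 23 of the 35 were lower and 3 higher, against 20.5% and 29% of all genes. With the slide as a block 21 of the 35 were lower and 2 higher, against 18.3% and 28.7%. Most changes were moderate: 3 of the 35 members fell at least 2-fold (3.64% of all genes did) and 0 rose that far (3.29% of all genes). The groups did not overlap, with miR-29 below control, in 26 of the 35 members, against 26.4% of all genes. With miR-29 above control they did not overlap in 5 of the 35, against 39.8% of all genes. Probe by probe, 36 of the 59 kept probes of members were lower and 4 higher, where 22.7% and 35.3% of all kept probes were.

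**Figure D2:**
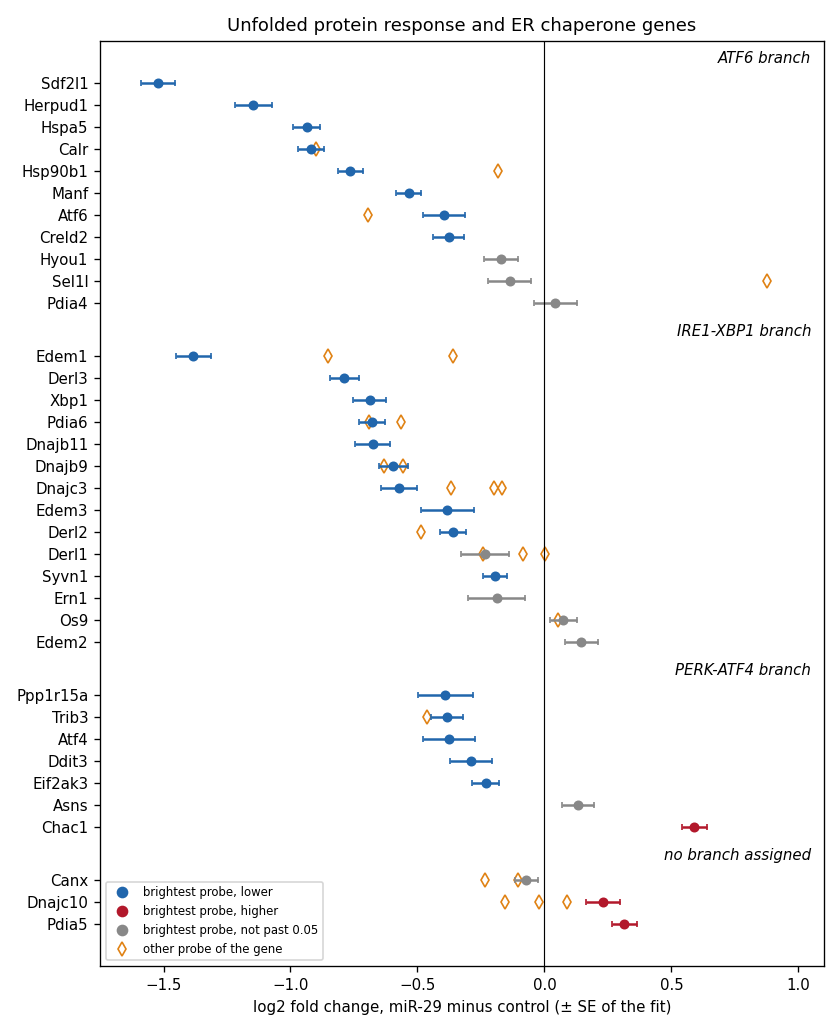
Log2 fold change (miR-29 minus control) of each of the 35 tested members, with the standard error of the fit, grouped by branch. Filled circles are the brightest probe of the gene, coloured by its call, and open diamonds are its other probes. Circles of the ATF6 and IRE1-XBP1 branches reach from -1.52 to 0.15, Chac1 at 0.59 is the highest circle, and the open diamond of Sel1l at 0.88 is the highest probe.

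The sensors and transcription factors at the head of the response were lower in 5 of 6 cases, all by less than 2-fold. Of all genes 22.8% were lower. Xbp1, the factor activated by IRE1 and itself a target of ATF6, had log2 signals of 1.28, 1.33 and 1.42 in the miR-29 arrays, against 2.04, 1.95 and 2.11 in the control arrays. The lowest control array thus lay above the highest miR-29 array, and Xbp1 fell by 0.69 (SE 0.0652, adjusted p = 0.000385, limma). The spliced and unspliced messengers were not measured separately here. Atf6 had -0.05, -0.21 and -0.17 in the miR-29 arrays and 0.38, 0.25 and 0.12 in the control arrays. It fell by 0.39 (SE 0.0828, adjusted p = 0.00819), and its other probe fell by 0.69 (SE 0.0564). Eif2ak3, which encodes PERK, had -0.19, -0.17 and -0.16 in the miR-29 arrays, against 0.14, -0.00 and 0.04 in the control arrays. It fell by 0.23 (SE 0.0532, adjusted p = 0.0115), and the groups lay close together without overlapping. With each array centred on its median the value was -0.23 and did not pass (adjusted p = 0.0725). Ern1, which encodes IRE1, did not pass: it had -2.25, -2.31 and -2.36 in miR-29 arrays and -2.36, -1.95 and -2.05 in control arrays, and the groups overlapped. Its log2 fold change was -0.19 (SE 0.113, adjusted p = 0.194), and it was 0.054 within slide 1.

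Atf4, the transcription factor translated when PERK is active, had 1.94, 1.77 and 1.86 in the miR-29 arrays and 2.03, 2.30 and 2.37 in the control arrays. Control replicate 1, on the slide of the miR-29 arrays, was the control closest to them. Atf4 fell by 0.38 (SE 0.103, adjusted p = 0.0222), and with slide as a block it was at -0.17 and did not pass (adjusted p = 0.157). Its call was lost in 7 of 17 alternatives, with adjusted p up to 0.198. Ddit3, which encodes the stress factor CHOP, had 0.17, 0.13 and -0.06 in the miR-29 arrays and 0.46, 0.37 and 0.28 in the control arrays. It fell by 0.29 (SE 0.0827, adjusted p = 0.0253), and its call was lost in 6 of 17 alternatives. These were slide 1 alone (adjusted p = 0.063), no filter on dim probes (0.0645), and leaving out miR-29 replicate 2 or 3 or control replicate 1 or 2 (0.0517 to 0.0669).

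**Figure D3:**
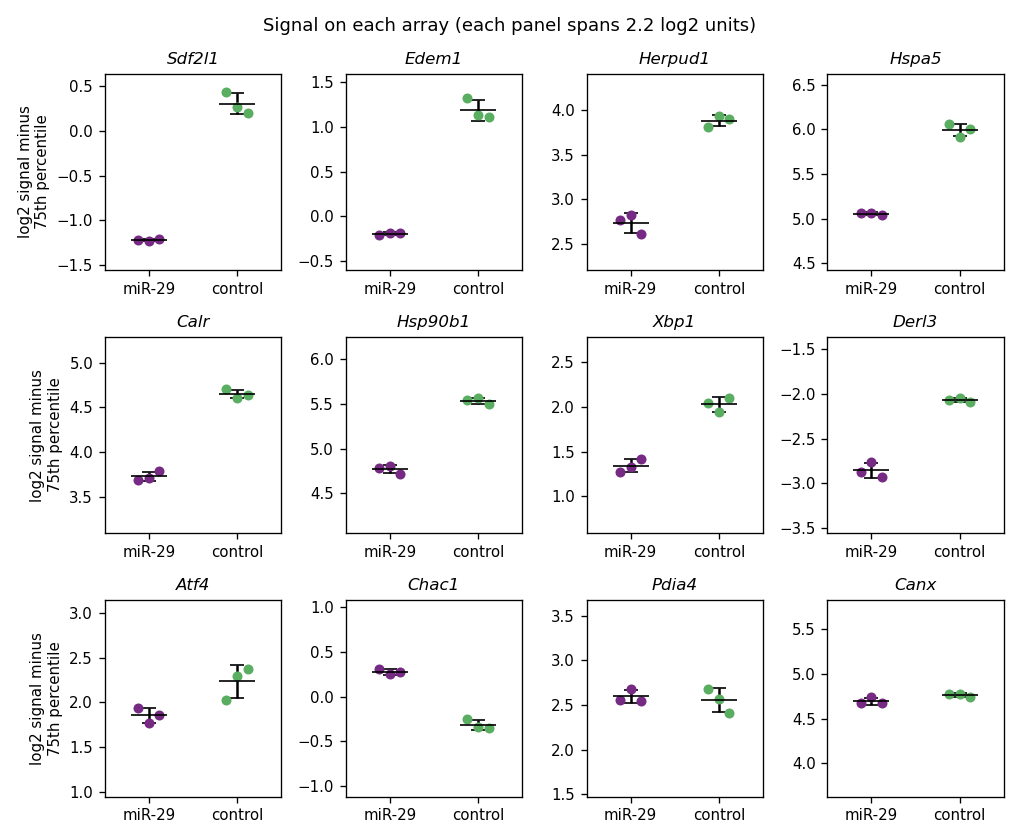
Log2 signal minus the 75th percentile of the array for 12 members, miR-29 arrays left and control arrays right in each panel. Points are single arrays, the horizontal bar is the mean and the whiskers are the SD (n = 3 each). Sdf2l1, Edem1 and Herpud1 show the widest gaps, Chac1 is higher in the miR-29 arrays, and the groups overlap for Pdia4.

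The 10 chaperones and co-chaperones comprised 7 that fell, 1 that rose and 2 that stayed short of the threshold. Their median log2 fold change was -0.64, and of all genes 22.8% fell and 35.3% rose. Sdf2l1, an ER protein that works with the chaperone BiP and its J-domain partners, had -1.22, -1.23 and -1.21 in the miR-29 arrays, against 0.43, 0.27 and 0.20 in the control arrays. It was 2.87-fold lower, the widest gap of any member, and fell by 1.52 (SE 0.0685, adjusted p = 4.74e-05). Hspa5 encodes BiP, the main Hsp70 of the ER, which also holds the sensors inactive. Its log2 signal was 5.06, 5.07 and 5.04 in the miR-29 arrays and 6.06, 5.92 and 6.01 in the control arrays, with every control array above every miR-29 array. Hspa5 fell by 0.94 (SE 0.0531, adjusted p = 7.63e-05), which is 1.91-fold. Calr, the lectin chaperone calreticulin, had 3.69, 3.71 and 3.79 in the miR-29 arrays and 4.70, 4.61 and 4.64 in the control arrays. It fell by 0.92 (SE 0.0515, adjusted p = 7.30e-05), and its other probe by 0.90. Both genes carry an ERSE shown above. The other carriers ran from -0.79 (Derl3) to -0.071 (Canx), and the part of the element was not tested.

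Hsp90b1 encodes GRP94, the Hsp90 of the ER. With its brightest probe it had 4.79, 4.81 and 4.72 in miR-29 arrays and 5.54, 5.57 and 5.50 in control arrays, and it fell by 0.76 (SE 0.0490, adjusted p = 0.000105). The other probe had 3.06, 2.92 and 2.80 in miR-29 arrays, against 3.39, 3.06 and 2.87 in control arrays, and did not pass (-0.18, SE 0.144, adjusted p = 0.312). The fall of Hsp90b1 thus rests on 1 of its probes. Of the members with a J-domain, Dnajb11, Dnajb9 and Dnajc3 were lower as well, whereas Dnajc10 was called higher (0.23). Dnajb11 had 2.98, 2.95 and 2.89 in the miR-29 arrays and 3.73, 3.59 and 3.52 in the control arrays, and it fell by 0.68 (SE 0.0683, adjusted p = 0.000483). Dnajb9, a repressor of IRE1 as well as a BiP partner, fell by 0.59 (SE 0.0562, adjusted p = 0.000381), and its other probes fell by 0.63 and 0.56. Dnajc3, which also inhibits PERK, fell by 0.57 (SE 0.0710, adjusted p = 0.00104), although its other 3 probes gave only -0.17, -0.37 and -0.20, of which the middle one passed.

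The chaperones that did not pass were Hyou1 and Canx. Hyou1, the large Hsp70 that exchanges nucleotide on BiP, had 3.64, 3.61 and 3.68 in miR-29 arrays and 3.73, 3.93 and 3.79 in control arrays, a difference of -0.17 (SE 0.0655, adjusted p = 0.0658). Hyou1 passed in 3 of 17 alternatives (limma). These were without control replicate 1 (-0.21, adjusted p = 0.0274), quantile normalization (-0.26, adjusted p = 0.02) and spike-in scaling (-0.42, adjusted p = 0.00808). Within slide 1 its value was -0.084. Canx, the membrane-bound partner of calreticulin, had 4.67, 4.74 and 4.67 in miR-29 arrays and 4.77, 4.78 and 4.74 in control arrays. Its log2 fold change was -0.071 (SE 0.0457, adjusted p = 0.224). A second probe passed at -0.23 (adjusted p = 0.0180) and the third, at -0.105, did not (adjusted p = 0.134). Dnajc10, a J-domain protein with reductase activity, was the one chaperone called higher, by 0.23 (SE 0.0662, adjusted p = 0.0258). Its arrays read 2.71, 2.83 and 2.81 after miR-29 and 2.63, 2.46 and 2.57 after control. None of its other 3 probes passed (-0.16, 0.089 and -0.023), and with scaling to spike-in spots the value was -0.020.

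The disulfide isomerases parted ways. Pdia6, which acts on BiP clients and on IRE1, had 5.16, 5.21 and 5.24 in the miR-29 arrays and 5.94, 5.85 and 5.85 in the control arrays. It fell by 0.68 (SE 0.0501, adjusted p = 0.000163), and its other probes by 0.57 and 0.69. Pdia4 had 2.56, 2.68 and 2.55 in miR-29 arrays and 2.68, 2.57 and 2.41 in control arrays, with overlapping groups and a difference of 0.042 (SE 0.0840, adjusted p = 0.681). The sign of Pdia4 turned with quantile normalization, with spike-in scaling and within slide 1 (-0.023, -0.21 and -0.086). Pdia5 was higher, with 2.03, 2.02 and 2.06 in miR-29 arrays and 1.78, 1.66 and 1.73 in control arrays. It rose by 0.31 (SE 0.0494, adjusted p = 0.00265). With spike-in scaling it was at 0.063 and no longer passed (adjusted p = 0.467).

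The 10 ERAD genes comprised 6 that fell, 0 that rose and 4 short of the threshold, and their median was -0.30. Of all genes 22.8% fell and 35.3% rose. Edem1, a lectin that draws mannose-trimmed glycoproteins out of the folding cycle, had -0.21, -0.18 and -0.19 in the miR-29 arrays, against 1.32, 1.14 and 1.11 in the control arrays. It was 2.61-fold lower and fell by 1.38 (SE 0.0686, adjusted p = 5.59e-05), and its other probes fell by 0.36 and 0.85. Herpud1 encodes a membrane protein of the ERAD ligase complex. It had 2.76, 2.83 and 2.61 in the miR-29 arrays and 3.81, 3.93 and 3.90 in the control arrays. It fell by 1.15 (SE 0.0726, adjusted p = 0.000102), which is 2.21-fold. Sdf2l1, Edem1 and Herpud1 were the 3 members past 2-fold.

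The Derlin genes, for membrane proteins of the exit channel, gave values of different size with their brightest probes. Derl3 had -2.87, -2.76 and -2.93 in the miR-29 arrays and -2.07, -2.04 and -2.09 in the control arrays. It fell by 0.79 (SE 0.0580, adjusted p = 0.000162, limma), and with normexp background correction its value was -0.49. Derl2 had 3.45, 3.42 and 3.38 in the miR-29 arrays, against 3.84, 3.76 and 3.73 in the control arrays. It fell by 0.36 (SE 0.0510, adjusted p = 0.00173, limma), and its other probe gave -0.49 (adjusted p = 0.000554). Derl1 had 2.51, 2.77 and 2.85 in miR-29 arrays and 2.95, 2.91 and 2.97 in control arrays, and did not pass (-0.23, SE 0.0948, adjusted p = 0.0774), while its other probes gave -0.24, 0.00061 and -0.084, of which the first passed. Whether the 3 Derlin genes differ from each other was not tested.

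Syvn1, the ERAD ubiquitin ligase HRD1, fell by only 0.20 (SE 0.0464, adjusted p = 0.0132). Its values were 4.25, 4.20 and 4.22 in miR-29 arrays and 4.43, 4.45 and 4.37 in control arrays, and the call was lost in 4 of 17 alternatives. These were median centring (-0.19, adjusted p = 0.0757), slide 1 alone (adjusted p = 0.0583) and leaving out replicate 2 of either group (adjusted p = 0.0508 for miR-29 and 0.0513 for control). Sel1l, the partner that stabilises HRD1, gave different answers with its probes. The probe with the higher mean over all 6 arrays did not pass, with -0.41, -0.53 and -0.38 in miR-29 arrays, against -0.17, -0.45 and -0.30 in control arrays (-0.14, SE 0.0855, adjusted p = 0.210). The other had -0.06, -0.11 and -0.11 in miR-29 arrays, against -1.13, -0.90 and -0.89 in control arrays, a rise of 0.88 (SE 0.0760, adjusted p = 0.000266). No direction can therefore be given for Sel1l as a gene. Edem3, a mannosidase, fell by 0.38 (SE 0.105, adjusted p = 0.0219), with -0.09, 0.15 and 0.10 in miR-29 arrays and 0.26, 0.46 and 0.58 in control arrays. With slide as a block it was at -0.21 and did not pass (adjusted p = 0.187), and its call was lost in 6 of 17 alternatives. Edem2, the mannosidase that makes the first trim, had 0.18, 0.19 and 0.37 in miR-29 arrays and 0.07, 0.11 and 0.12 in control arrays (0.15, SE 0.0659, adjusted p = 0.103). Os9, a lectin of the ligase complex, had 3.89, 3.89 and 3.91 in miR-29 arrays and 3.89, 3.83 and 3.75 in control arrays (0.075, SE 0.0516, adjusted p = 0.252). The signs of both turned with spike-in scaling, to -0.105 and -0.18.

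Creld2 and Manf, small ER proteins that are released under ER stress, both fell. Manf, a neurotrophic factor of astrocytes, had 3.19, 3.24 and 3.22 in the miR-29 arrays and 3.81, 3.70 and 3.74 in the control arrays. It fell by 0.53 (SE 0.0487, adjusted p = 0.000337). Creld2 had 4.08, 4.05 and 3.97 in the miR-29 arrays and 4.49, 4.41 and 4.33 in the control arrays, and fell by 0.38 (SE 0.0607, adjusted p = 0.00291).

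Downstream of PERK the genes went both ways. Chac1, which breaks down glutathione and is a target of ATF4, had 0.31, 0.25 and 0.27 in the miR-29 arrays and -0.25, -0.34 and -0.35 in the control arrays. All 3 miR-29 arrays were above all controls, and Chac1 rose by 0.59 (SE 0.0508, adjusted p = 0.000274) or 1.51-fold. It kept its call in each of the 17 alternative analyses (0.34 to 0.62). Trib3, a pseudokinase induced by ATF4 and CHOP, had -1.69, -1.56 and -1.74 in the miR-29 arrays and -1.24, -1.32 and -1.29 in the control arrays. It fell by 0.38 (SE 0.0629, adjusted p = 0.00315), and its other probe by 0.46. Ppp1r15a, the phosphatase subunit GADD34 that restarts translation, fell by 0.39 (SE 0.108, adjusted p = 0.0229), with -0.12, 0.07 and 0.26 in miR-29 arrays and 0.56, 0.42 and 0.39 in control arrays. Its call was lost in 7 of 17 alternatives, with adjusted p up to 0.0775 (slide 1 alone), among them leaving out miR-29 replicate 1 or 2 or control replicate 1 or 2 (0.0505 to 0.0655). Asns, the asparagine synthetase gene, had 3.99, 4.01 and 4.06 in miR-29 arrays and 4.00, 3.81 and 3.85 in control arrays. The groups overlapped at control replicate 1, and the log2 fold change was 0.13 (SE 0.0640, adjusted p = 0.122), or 0.19 without that array (adjusted p = 0.0175).

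The ATF6, IRE1-XBP1 and PERK branches are set side by side here. Genes were put in a branch from textbook knowledge, and many ATF6 and XBP1 targets are shared. Across all genes tested, 22.8% were lower and 35.3% higher. In the ATF6 branch 8 of 11 fell and 0 rose, 3 being short of the threshold, and the median was -0.53. In the IRE1-XBP1 branch 10 of 14 fell and 0 rose, 4 being short of it, and the median was -0.48. The PERK-ATF4 branch had 5 of 7 lower, 1 higher and 1 not past, with a median of -0.29 and a lowest value of -0.39. Thus each of the 5 lower PERK-branch genes fell by less than the median of either other branch, and the difference between branches was not tested. Within slide 1, whose only control is replicate 1, the medians were -0.59 (ATF6), -0.47 (IRE1-XBP1) and -0.31 (PERK-ATF4). The median over all genes was 0.095 there. Of the 5 lower PERK-branch genes, only Trib3 kept its call in all 17 alternative analyses. Of the 4 genes without a branch, Pdia5 and Dnajc10 were higher, Canx did not pass and Pdia3 was not analysed here. Relative to the mean of the control arrays, the median of the ATF6 branch was -0.56, -0.51 and -0.53 in the 3 miR-29 arrays, and 0.064, -0.0026 and -0.027 in the control arrays. The corresponding values of the PERK-ATF4 branch were -0.24, -0.24 and -0.22 in the miR-29 arrays, and 0.079, -0.033 and -0.035 in the control arrays. For the IRE1-XBP1 branch they were -0.53, -0.47 and -0.42 in the miR-29 arrays, and 0.014, -0.0019 and -0.0036 in the control arrays. Control replicate 1, which shares the slide of the miR-29 arrays, was the highest control in all 3 branches. The part of the slide in these medians was not tested.

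**Figure D4:**
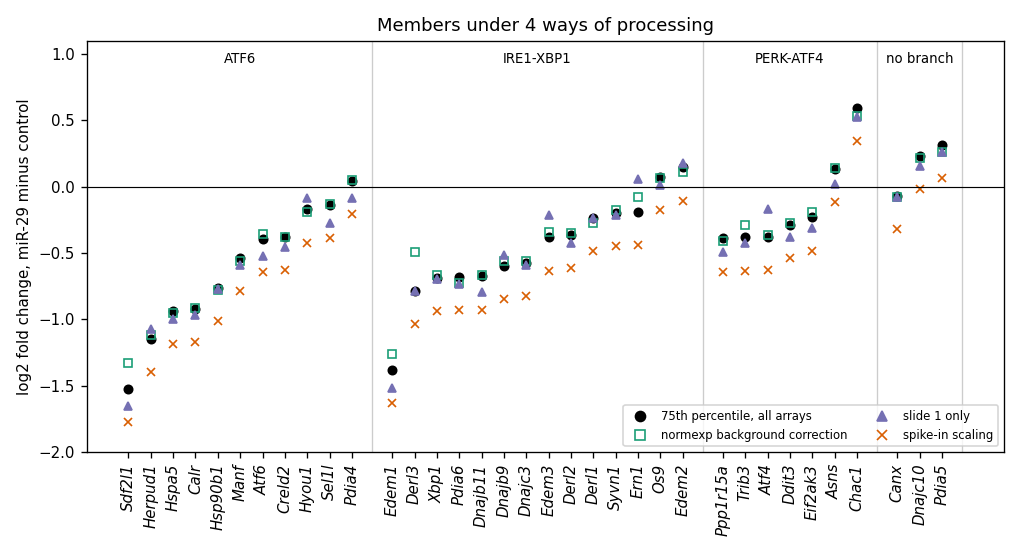
Log2 fold change (miR-29 minus control) of the 35 members, grouped by branch, under 4 ways of processing. Black circles are the reported values, open squares normexp background correction, triangles the 4 arrays of slide 1 and crosses scaling to spike-in spots. Crosses lie about 0.25 below the circles for every gene, and the widest falls in each setting are those of Sdf2l1, Edem1 and Herpud1.

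The members were also set side by side by promoter element. Of the 11 tested members with an ERSE or ERSE-II match, 10 fell, 0 rose and Canx stayed short of the threshold. Their median log2 fold change was -0.68, in a range of -1.15 to -0.071. Of the 20 tested members whose promoter held neither, 11 fell, 3 rose and 6 stayed short of it, and the median was -0.26. Sdf2l1 and Edem1, the members with the widest fall, are among those without an exact match in this window. The same ERSE letters stand in the promoters of 11 tested genes that are not members, of which 4 were lower, 4 higher and 3 not past, with a median of -0.20. The ERSE-II letters stand in 6 further tested genes, of which 2 were lower, 2 higher and 2 not past (median -0.038). These counts describe the genes and were not tested. The ATF4 element is held by Herpud1, which fell, and by Chac1, which rose. It also stands in 74 tested genes outside the members, of which 8 fell, 30 rose and 36 did not pass (median 0.088). Each count by element should be read beside all genes tested, of which 22.8% fell and 35.3% rose (median 0.068). Whether genes with the ATF4 element differ from all genes was not tested.

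Other genes were listed by function in 9 lists of 164 tested genes. Of these 46 were lower (28%), 46 higher (28%) and 72 not past (median log2 fold change 0.0095). Over all genes 22.8% were lower and 35.3% higher. In the 4 lists of the ER itself 31 of 86 genes fell (36%) and 21 rose (24.4%), and the median was -0.050. In the 5 lists of other genes of the response and of chaperones outside the ER, 15 of 78 fell (19.2%) and 25 rose (32.1%), and the median was 0.027. The pooling into 4 and 5 lists was made after their values were seen. The list nearest to the members was that of other ER oxidoreductases and folding enzymes. There 13 of 26 fell (50%) and 5 rose (19.2%), with a median of -0.12. Qsox1, a sulfhydryl oxidase, fell by 1.40 (SE 0.0573, adjusted p = 4.05e-05), Erp29 fell by 0.87 and the membrane thioredoxin Tmx1 fell by 0.50, while Tmx2, the folding sensor gene Uggt1 and Tmx4 rose by 0.67, 0.47 and 0.46. Among 26 translocon and signal peptide genes 9 fell (34.6%) and 8 rose (30.8%), with a median of 0.059. Ssr2, a subunit of the translocon-associated complex, had 1.81, 1.77 and 1.83 in the miR-29 arrays, against 3.46, 4.15 and 3.92 in the control arrays, and fell by 2.04 (SE 0.170, adjusted p = 0.000249). The signal recognition particle receptor gene Srpr fell by 1.41 (-1.25 and -0.20 with its other probes) and Sec61a1, the channel itself, by 0.51, whereas the signal peptidase genes Spcs3 and Spcs2 rose by 0.84 and 0.67 and Tram2 by 0.60. Other probes gave 0.37 and 0.86 for Spcs3 and 0.33 for Spcs2. The oligosaccharyltransferase list had 5 of 11 lower (45.5%) and 2 higher (18.2%), with a median of -0.083. Ostc fell by 1.20 and the catalytic subunit gene Stt3a by 0.63, Tusc3 fell by 0.41, and Krtcap2 and Dad1 rose by 0.38 and 0.30.

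In the list of other ERAD genes 4 of 23 fell (17.4%) and 6 rose (26.1%), with a median of 0.061. Over all genes 22.8% fell and 35.3% rose. The ubiquitin-conjugating enzyme gene Ube2g2, a partner of ER ligases, fell by 1.06 (SE 0.0586, adjusted p = 7.23e-05), Erlin2 fell by 0.55 and Erlec1 by 0.17, although another probe of Erlec1 gave 0.37. Erlin1, Ufd1 and Ubxn6 rose by 0.77, 0.45 and 0.44, and another probe of Ufd1 gave -0.38. Among ATF6-related factors and site proteases 3 of 11 fell (27.3%) and 4 rose (36.4%), near the shares of all genes (median -0.12). Both the ATF6 relative Atf6b and Mbtps1, the protease that cuts ATF6, fell by 0.39 (other probes of Mbtps1 -0.10 and -0.69), and the NF-Y subunit gene Nfyc fell by 0.41. Creb3l2, Creb3l4 and the NF-Y subunit gene Nfyb rose by 0.53, 0.50 and 0.37, and another probe of Nfyb gave -0.090.

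In the lists of genes beyond the ER some shares were near those of all genes. In the wider ATF4 programme 7 of 29 fell and 3 rose (median -0.028), shares of 24.1% and 10.3% against the 22.8% and 35.3% of all genes. The cationic amino acid transporter gene Slc7a1 fell by 1.56 (-0.41 with its other probe), the folate enzyme gene Mthfd2 by 0.93 and the transporter gene Slc7a5 by 0.69, and Ddit4, Phgdh and Iars rose by 0.56, 0.46 and 0.19, the last reversed with spike-in scaling (-0.057). Of 12 genes of eIF2 control 2 fell (16.7%) and 4 rose (33.3%), near the shares of all genes (median 0.12). Eif2b1 fell by 0.92 and Ppp1r15b, the constitutive relative of Ppp1r15a, by 0.86 (-0.13 with its other probe). The interferon-induced kinase gene Eif2ak2 rose by 0.56, and Eif2s3x and Eif2s1 rose by 0.21 and 0.19 but had -0.039 and -0.063 with spike-in scaling. Cytosolic heat shock genes were lower in 3 of 17 cases (17.6%) and higher in 8 (47.1%), with a median of 0.18. The inducible Hsp70 gene Hspa1a fell by 1.61 (SE 0.0600, adjusted p = 3.49e-05), Bag3 by 0.37 and Dnajb1 by 0.24, while Hsp90aa1, Hspa8 and Hsp90ab1 rose by 0.77, 0.45 and 0.31. Its near-identical neighbour Hspa1b, named here for that reason after its value was seen, was at -0.13 and did not pass (adjusted p = 0.105; other probe -0.24), whereas the other Hspa1a probe was at -1.68. How far probes of the pair share messengers is uncertain. Of 9 mitochondrial chaperone genes 0 fell and 6 rose (66.7%, median 0.24), with Hspd1, Hspe1 and Grpel1 rising by 0.46, 0.42 and 0.32. With slide as a block the rises of Dad1, Creb3l2, Iars and Eif2s1 did not pass (adjusted p = 0.195, 0.114, 0.222 and 0.139). With spike-in scaling the medians of the heat shock and mitochondrial lists were -0.073 and -0.015.

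**Figure D5:**
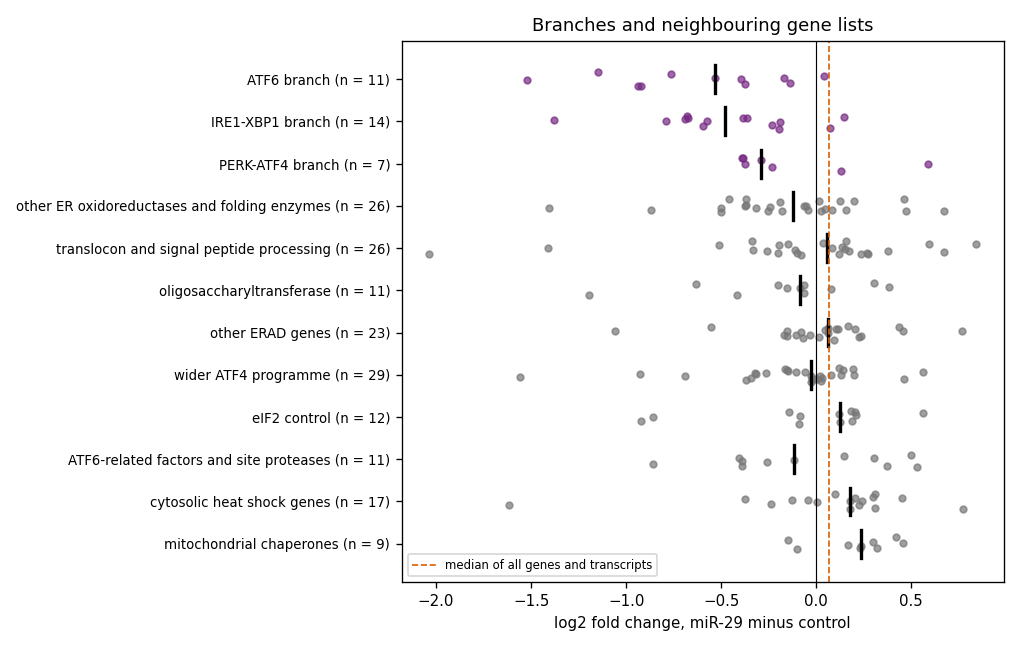
Log2 fold change (miR-29 minus control) of each tested gene in the 3 branches (purple) and in the 9 other lists (grey), with the median of each list as a black bar and the median of all genes as a dashed line. The medians of the branches lie at -0.53, -0.48 and -0.29, those of the other lists between -0.12 and 0.24.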

How the data were processed

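Total RNA of 6 astrocyte samples was labelled with Cy3 and hybridised to one-colour Agilent arrays. The deposited intensity values are processed signals from Feature Extraction 10.7.3.1, per the file headers (10.7 in the submitters' processing notes), already background-subtracted there. The deposited series table holds the same intensity values multiplied by 1 factor per array (2.627 to 3.427), so its scaling is the authors' own; it served as an alternative. Each signal was floored at 1 and its log2 taken from the deposited intensity, minus the array's 75th percentile over non-control probes. Of 41174 probes 26933 matched 1 gene by RefSeq accession. A probe was kept (26428 were) if it was well above background on every array of the miR-29 group, of the control group or of both, and the brightest stood for its gene. Genes were tested with limma 3.58.1 in R 4.3.3 (lmFit, eBayes), with Benjamini-Hochberg adjustment over 19741 genes and a threshold of 0.05, after a check on simulated data. All members are named, and of each other list up to 3 genes with the largest fall and 3 with the largest rise past the threshold whose groups do not overlap. Members, lists, motifs and tests were chosen with earlier results of these data known. Normexp background correction (offset 50) used the median spot signal, since mean spot signals were not used here. The other alternatives changed the scaling, probe filter, probe summary, slide, replicate block or arrays left out. The number of arrays limits the precision.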

Additional observations from a re-analysis of the deposited data

How the results depend on the processing

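Under 17 alternative analyses, 17 of the 23 lower members and Chac1 kept their call in every one. Of 595 values 526 kept direction and side of the threshold. The alternatives overlap and are not independent checks. The deposited table rescales the same signals, and the slide block and slide 1 alone both rest on control replicate 1. Scaling to spike-in spots moved most. It gave 7607 lower and 3010 higher genes, 1 higher member, 84 lower and 12 higher genes in the other lists, and medians of -0.63 for the members, -0.78 for ATF6, -0.73 for IRE1-XBP1, -0.54 for PERK-ATF4 and -0.020 for genes without a branch. It reversed Asns (-0.12), Dnajc10 (-0.020), Edem2 (-0.105), Os9 (-0.18) and Pdia4 (-0.21). Quantile normalization gave medians of -0.62 (ATF6) and -0.53 (IRE1-XBP1) and reversed Os9 (-0.011) and Pdia4 (-0.023). With the slide as a block, and within slide 1, the medians were -0.42 (members), -0.59 (ATF6) and 0.15 (no branch), Ern1 (0.054) and Pdia4 (-0.086) were reversed, and the other lists had 27 and 23 higher genes. Median centring gave 30 higher genes there. Normexp gave -0.42 for IRE1-XBP1. The mean of all probes gave -0.40 for IRE1-XBP1, 0.035 for no branch and 0.37 for Sel1l. Without 1 array, the members' median ranged from -0.39 to -0.34 and that of PERK-ATF4 from -0.32 to -0.24, and Pdia4 ranged from -0.030 (without control replicate 3) to 0.11 (without control replicate 1). The cause of these moves was not tested, beyond the uniform spike-in shift of -0.25. With the replicate number as a block (replicate block), 4524 genes were lower and 6998 higher, and 22 members were lower and 2 higher, Ppp1r15a (adjusted p = 0.056) and Dnajc10 (adjusted p = 0.0636) losing their calls. Same-numbered arrays correlated in their deviations at 0.132, 0.0938 and 0.245, and each array correlated best with its own number, a hint from the data; the labels give no shared source for a number.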
